A study of Mus musculus with 10 samples.

Results

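The 10 genes described here encode enzymes of eicosanoid synthesis and were chosen by name, as the entries of the normalized count table whose gene symbol is *Ptgs1*, *Ptgs2*, *Ptges*, *Ptgis*, *Hpgds*, *Tbxas1*, *Alox5*, *Alox5ap*, *Ltc4s* or *Lta4h*. All 10 were found, among 25233 entries with a gene symbol. They were measured by bulk RNA sequencing in 10 libraries of sorted mouse liver cells, 5 of hypertrophied hepatic stellate cells (hypHSC) and 5 of quiescent ones (qHSC), all from C57BL/6J mice. The hypHSC came from animals fed the CDAHFD, which is rich in fat, lacks choline and brings about steatohepatitis and fibrosis: hypHSC 1 and 2 after 13 weeks of diet at 19 weeks of age, and hypHSC 3, 4 and 5 after 12 weeks of diet at 18 weeks of age. The qHSC came from older animals on the standard diet, aged 36 weeks for qHSC 1, 2 and 5 and 34 weeks for qHSC 3 and 4. Diet, age, liver digestion and sort gate (on green droplet fluorescence for hypHSC and on blue for qHSC) thus changed together and cannot be told apart. No source names the mouse behind each library, so n counts preparations, and p-values measure the spread between these preparations.

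Eicosanoids are signalling lipids made from arachidonic acid that phospholipases release from membranes. The cyclooxygenases convert it to prostaglandin H2, which terminal synthases turn into prostaglandin E2, prostaglandin D2, prostacyclin or thromboxane A2. In the other branch, 5-lipoxygenase, with the help of its activating protein FLAP, makes leukotriene A4, from which the chemoattractant leukotriene B4 or the cysteinyl leukotriene C4 is formed. In the liver, Kupffer cells and recruited macrophages are known producers of prostanoids, and stellate cells respond to several of them with contraction or relaxation.

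The libraries held 30534719 to 43283589 reads on genes with a symbol in hypHSC and 35640104 to 47317028 in qHSC, so that 3 reads, taken as the floor of detection, were worth 2.25 to 4.54 normalized counts. These limits cover counting error only. The stellate cell markers were low in the libraries labelled hypHSC: 12 of 12 were lower there, with a summed level of 25641 to 59732 normalized counts against 972716 to 1394156 in qHSC. Macrophage markers showed the opposite, 10 of 10 being higher in hypHSC, with a summed level of 1036750 to 1398725 against 5218 to 73627. No marker of either list was at the floor in all libraries of a group. Summed markers of resident Kupffer cells overlapped, at 19172 to 35361 in hypHSC and 5114 to 55710 in qHSC. Of these 8 markers, 3 were higher in hypHSC and 1 was lower, *C6*, at 700 to 943 against 3512 to 8856 in qHSC. Summed neutrophil markers reached 2039 to 8404 in hypHSC and 5.25 to 400 in qHSC. The 9 mast cell and basophil markers summed to 80.2 to 937 in hypHSC and 12.8 to 36.8 in qHSC. Most of this was *Hdc*, the 1 of them that could be tested, which was higher in hypHSC (3.47, adjusted p = 0.00183, limma). *Cpa3*, *Tpsb2* and *Cma1* had reads in hypHSC alone, and the other 5 had 0 reads in every library. Of the other lists, 5 of 5 tested cholangiocyte markers and 2 of 3 mesothelial markers were higher in hypHSC. Single genes carried 2 of the sums in hypHSC. *Spp1* had a mean of 237752 normalized counts, and the next cholangiocyte marker, *Cldn4*, 1365. *Fcgr2b* had 5287, and the next sinusoidal endothelial marker, *Stab2*, 274. Of 7 sinusoidal endothelial markers 3 were higher and 1 lower, of 6 dendritic cell markers 2 were higher and 1 lower, and of 8 hepatocyte and 3 lymphocyte markers 0 were called. Of all genes tested, 17.8% were higher and 21.7% lower. In bulk RNA, fewer cells of a type and less RNA per cell cannot be told apart.

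In hypHSC, the synthases of prostaglandin D2 (*Hpgds*), thromboxane (*Tbxas1*), prostaglandin E2 (*Ptges*) and leukotriene C4 (*Ltc4s*), FLAP (*Alox5ap*) and cyclooxygenase 2 (*Ptgs2*) were higher than in qHSC, and prostacyclin synthase (*Ptgis*) was lower. The differences ran from 3.42 to 7.44 on the log2 scale upwards, and *Ptgis* fell by 3.05. Of the 9 enzymes that passed the filter on low values, 7 were differentially expressed genes (DEGs, at least a 2-fold difference with an adjusted p of at most 0.05 in limma), 6 of them higher and 1 lower in hypHSC. *Alox5* did not pass the filter and was not tested. Over the whole table, 39.5% of the 14630 genes tested were called, 17.8% as higher and 21.7% as lower in hypHSC. The groups did not overlap for 7 of the 9 enzymes, against 39.5% of all genes tested. The groups thus differed widely as a whole, and the counts of enzymes are to be read beside these shares.

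**Figure D1:**
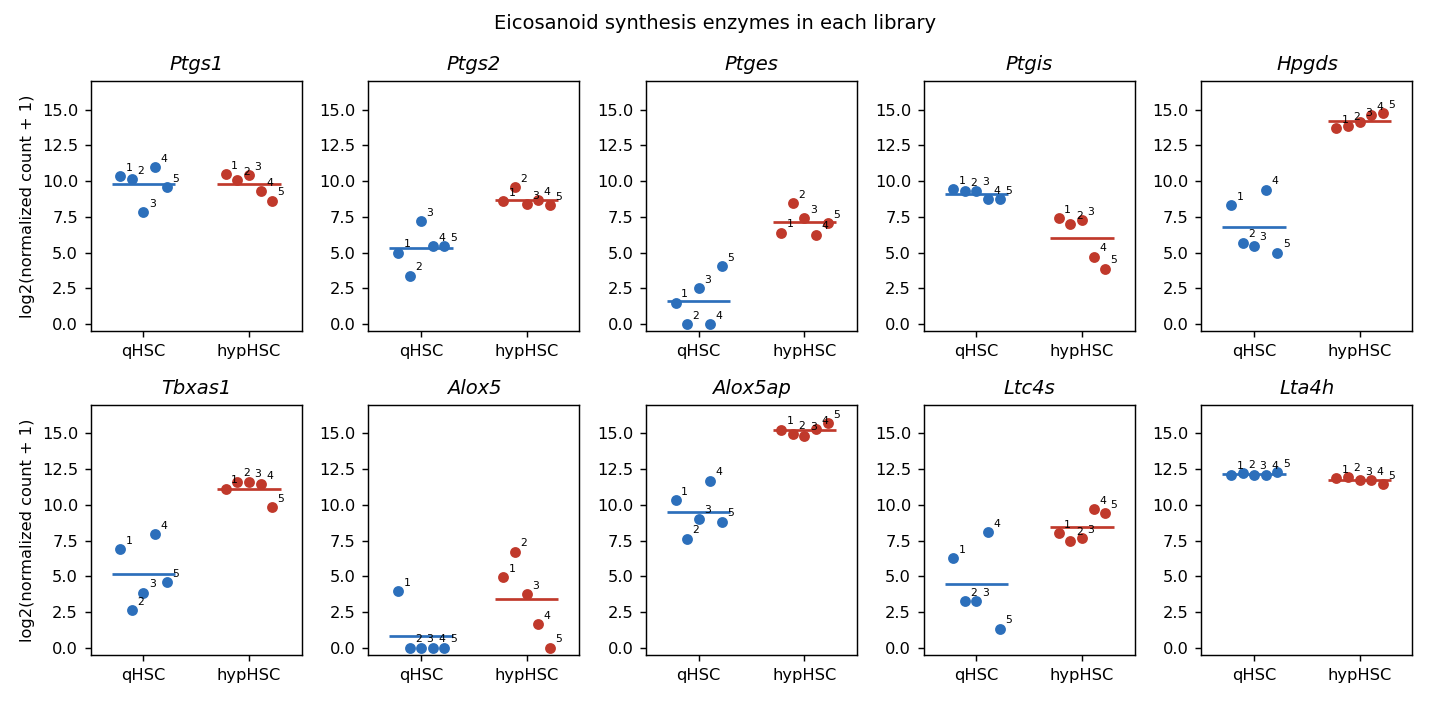
Level of each of the 10 enzymes, as log2(normalized count + 1), in each qHSC (blue) and hypHSC (red) library; the numbers give the replicate and the bars the group means. *Hpgds*, *Tbxas1*, *Alox5ap*, *Ptgs2* and *Ptges* separate upwards in hypHSC and *Ptgis* downwards, *Ptgs1* overlaps fully, and *Lta4h* lies between 11 and 13 in all libraries.

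To set sequence beside level, the 250 bases before the annotated start (GENCODE canonical transcript, GRCm39, the build of the mapped reads) are shown for the 3 most raised enzymes whose window holds no exon of the gene itself, *Hpgds*, *Tbxas1* and *Ptges*, and for *Ptgs1*, with no detectable difference. They lie at chr6:65121984-65122233 on the minus strand (*Hpgds*), chr6:38895638-38895887 on the plus strand (*Tbxas1*), chr2:30793356-30793605 on the minus strand (*Ptges*) and chr2:36120188-36120437 on the plus strand (*Ptgs1*). Capitals mark matches, on either strand, to 1 of 5 motifs searched: GGAAGT, the core bound by PU.1 and other ETS factors; the C/EBP palindrome TTGCGCAA; the E-box CACGTG; the core ACGTCA of the cyclic AMP response element; and the TATA box TATAAA. None of these motifs shares bases with another in the windows shown.
Hpgds: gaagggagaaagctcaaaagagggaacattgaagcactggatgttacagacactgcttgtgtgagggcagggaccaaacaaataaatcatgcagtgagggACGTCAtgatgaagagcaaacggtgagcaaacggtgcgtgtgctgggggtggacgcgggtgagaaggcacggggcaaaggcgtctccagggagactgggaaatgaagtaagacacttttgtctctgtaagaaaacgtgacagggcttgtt
Tbxas1: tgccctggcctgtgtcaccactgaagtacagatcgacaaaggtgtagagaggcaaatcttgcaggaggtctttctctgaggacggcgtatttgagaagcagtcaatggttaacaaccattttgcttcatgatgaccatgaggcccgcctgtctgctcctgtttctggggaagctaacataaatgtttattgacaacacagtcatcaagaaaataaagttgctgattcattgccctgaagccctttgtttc
Ptges: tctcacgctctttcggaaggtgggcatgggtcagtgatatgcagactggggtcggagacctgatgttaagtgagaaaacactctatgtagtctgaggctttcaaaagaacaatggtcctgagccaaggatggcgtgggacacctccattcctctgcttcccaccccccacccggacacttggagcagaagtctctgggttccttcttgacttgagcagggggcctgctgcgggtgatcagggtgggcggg
Ptgs1: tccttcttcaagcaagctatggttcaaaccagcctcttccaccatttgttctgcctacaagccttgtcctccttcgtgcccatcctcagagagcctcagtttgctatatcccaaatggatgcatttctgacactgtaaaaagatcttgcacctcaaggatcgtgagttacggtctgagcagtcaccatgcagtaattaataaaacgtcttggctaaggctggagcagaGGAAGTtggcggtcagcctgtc

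GGAAGT stood in the windows of 2 of the 10 enzymes, *Ptgs1* (bases 22 to 17 before the start) and *Ltc4s* (116 to 111 before it), and in 19.0% of the windows of 21770 protein-coding genes. ACGTCA stood in those of *Hpgds* (150 to 145 before the start) and *Ptgs2* (73 to 68), and in 6.49% of all windows. The other 3 motifs stood in none of the 10 windows, and in 0.165% (TTGCGCAA), 6.26% (CACGTG) and 11.9% (TATAAA) of all windows. *Hpgds*, with a large difference between groups, and *Ptgs1*, with none detectable, each had 1 match, and *Tbxas1* and *Ptges* had none. Only 5 of the 10 windows held no exon of the gene itself. Bases in own exons numbered 250 for *Ptgis*, 205 for *Ptgs2*, 84 for *Ltc4s*, 51 for *Alox5ap* and 39 for *Lta4h*. The window of *Tbxas1* lay inside its deposited entry, which runs from 38852337 to 39061518 on chr6. A match describes letters in this window only, and other annotated starts would give other windows.

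*Ptgs1* encodes cyclooxygenase 1, the constitutive form of the enzyme that makes prostaglandin H2. It measured 1427, 1062, 1345, 626 and 396 normalized counts in hypHSC 1 to 5 and 1311, 1134, 224, 2021.99 and 764 in qHSC 1 to 5. The groups overlapped fully, and the lowest and the highest library were both qHSC. The means were 971 ± 449 and 1091 ± 666 (SD, n = 5 each), with a log2 fold change of -0.01 (SE 0.56, 95% interval -1.24 to 1.22, adjusted p = 0.994, limma). The interval holds differences of more than 2-fold in either direction, so that a change of that size was not detectable at this spread.

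*Ptgs2*, which encodes the inducible cyclooxygenase 2, rose in hypHSC. It measured 387, 759.9, 332, 407 and 316 normalized counts in hypHSC 1 to 5 and 30.8, 9.37, 145, 42.8 and 42.7 in qHSC 1 to 5. Every hypHSC library was above every qHSC library, hypHSC 2 was the highest, and qHSC 3 stood above the other qHSC. The log2 fold change was 3.42 (SE 0.60, adjusted p = 0.000728, limma; exact permutation p = 0.00794, the smallest that 5 libraries against 5 allow). Among qHSC, the highest library for *Ptgs2* was not the highest for the macrophage markers. It was qHSC 3, with 32.9% of the hypHSC mean of *Ptgs2* and 0.724% of that of the summed macrophage markers. Among hypHSC, both were highest in hypHSC 2 (173% and 114% of the hypHSC mean) and lowest in hypHSC 5 (71.8% and 84.5%). The part of macrophages in the level of *Ptgs2* was not tested. The exons of *Ptgs2* share 9.29% of their bases with *Ptgs2os* on the other strand, and the libraries did not keep the strand.

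The ratio of *Ptgs2* to *Ptgs1* within a library does not depend on how libraries are scaled. On the log2 scale it lay between -2.02 and -0.33 in hypHSC and at -5.37, -6.77, -0.63, -5.53 and -4.13 in qHSC 1 to 5. *Ptgs1* was thus the more abundant in counts in every library, and qHSC 3, low in *Ptgs1* and high in *Ptgs2*, fell within the hypHSC range. The ratio was higher in hypHSC by 3.42 (exact permutation p = 0.0238, adjusted p = 0.0397 over 5 ratios).

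*Ptges* encodes the inducible, microsomal prostaglandin E synthase that works with cyclooxygenase 2. It was close to absent in qHSC, with 1.81, 0, 4.72, 0 and 15.7 normalized counts in qHSC 1 to 5, of which only qHSC 3 and 5 were above the floor of 3 reads. In hypHSC 1 to 5 it measured 82.2, 353, 167, 75.5 and 132. The groups did not overlap, and *Ptges* rose by 5.50 on the log2 scale (SE 0.84, adjusted p = 0.00027, limma). Since qHSC lay at or near 0, this difference depends on the pseudocount and was 5.98 with 0.5 and 4.14 with 5 in place of 1. The level stayed modest: per exon length *Ptges* reached 0.896 ± 0.652 FPKM in hypHSC (SD, n = 5).

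*Hpgds*, the haematopoietic prostaglandin D synthase of mast cells, macrophages and other blood-derived cells, differed the most of the 9 enzymes. It measured 13200.2, 15011, 18169, 25076 and 27376 normalized counts in hypHSC 1 to 5 and 314, 51.1, 43.3, 668 and 30.7 in qHSC 1 to 5. The lowest hypHSC library was far above the highest qHSC library, qHSC 4. *Hpgds* rose by 7.44 on the log2 scale (SE 0.77, adjusted p = 1.7e-05, limma), and the ratio of the group means was 89.2. The 2 hypHSC libraries at 13 weeks were both below the 3 at 12 weeks, a difference of -0.72 (SE 1.13) that did not pass the test (adjusted p = 0.768, limma). *Ptgds*, the other prostaglandin D synthase, had at most 50 reads in any library and was not tested.

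*Tbxas1* encodes thromboxane A synthase, which makes the vasoconstrictor and platelet activator thromboxane A2. It measured 2219, 3111, 3091, 2774 and 903 normalized counts in hypHSC 1 to 5 and 118, 5.11, 13.4, 244 and 23.2 in qHSC 1 to 5. The groups did not overlap; hypHSC 5 stood well below the other hypHSC, and qHSC 1 and 4 above the other qHSC. *Tbxas1* rose by 5.94 on the log2 scale (SE 0.89, adjusted p = 0.000252, limma). Platelets also make this enzyme, and of the 5 platelet and megakaryocyte markers tested 1 was higher and 1 lower in hypHSC, with summed levels of 4466 to 8157 normalized counts in hypHSC and 3694 to 6269 in qHSC. The largest part of these sums was *Pf4*, with means of 5943 in hypHSC and 3226 in qHSC. The higher marker was *Ppbp*, at 61.3 against 7.77 normalized counts, and the lower one *Itga2b*, at 27.5 against 1069. *Gp9* and *Gp6* had at most 3 reads in any library. The part of platelets in the level of *Tbxas1* was not tested.

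*Ptgis*, which encodes the prostacyclin synthase of vascular and mesenchymal cells, was the 1 DEG among the enzymes that was lower in hypHSC. It measured 693, 625, 646, 423 and 422 normalized counts in qHSC 1 to 5 and 167, 127, 153, 25.2 and 13.6 in hypHSC 1 to 5. Every hypHSC library was below every qHSC library, and hypHSC 4 and 5 were the lowest. *Ptgis* fell by 3.05 on the log2 scale (SE 0.67, adjusted p = 0.00299, limma). The 12 stellate cell markers fell as well, with a median log2 fold change of -5.28, and the part of the cell makeup in the level of *Ptgis* was not tested.

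Thromboxane A2 and prostacyclin act against each other on vessels and platelets, and their synthases moved in opposite directions. The log2 ratio of *Tbxas1* to *Ptgis* was 3.72, 4.60, 4.33, 6.73 and 5.95 in hypHSC 1 to 5 and -2.55, -6.68, -5.49, -0.79 and -4.13 in qHSC 1 to 5. *Tbxas1* had the more counts in every hypHSC library and *Ptgis* in every qHSC library. The groups differed by 8.99 (exact permutation p = 0.00794, adjusted p = 0.0397 over 5 ratios). Neither gene overlapped between groups and the 2 moved in opposite directions, so the ratio had to separate the groups. Its p-value thus adds nothing to the tests of the single genes. The ratio of *Hpgds* to *Ptges* did not differ detectably, with a difference of 1.95 (exact permutation p = 0.278), and ran from 0.92 to 9.39 in qHSC, where *Ptges* was near 0.

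*Alox5ap* encodes FLAP, the membrane protein that hands arachidonic acid to 5-lipoxygenase, and was the most abundant of the 10 enzymes in hypHSC. It measured 39396, 31813, 29430, 39533 and 54114 normalized counts in hypHSC 1 to 5 and 1288, 196, 522, 3318 and 448 in qHSC 1 to 5. The groups did not overlap, and qHSC 4 and qHSC 1 stood above the other qHSC. *Alox5ap* rose by 5.71 on the log2 scale (SE 0.61, adjusted p = 2.4e-05, limma). At 236 ± 36.0 FPKM (SD, n = 5) it ranked 166 among all genes with an exon length in hypHSC, against rank 2837 in qHSC.

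*Alox5*, 5-lipoxygenase itself, was nearly undetected beside it. It measured 29.7, 105, 12.5, 2.10 and 0 normalized counts in hypHSC 1 to 5 and 14.5, 0, 0, 0 and 0 in qHSC 1 to 5, and thus had reads in 5 of the 10 libraries. A count of 0 allows up to 3 reads, or 2.25 to 4.54 normalized counts. The groups overlapped (exact permutation p = 0.127). The log2 ratio of *Alox5ap* to *Alox5* lay between 8.24 and 15.72 in hypHSC, so that FLAP had far more counts than 5-lipoxygenase in every hypHSC library. It was higher than in qHSC by 3.10, which did not pass the test (exact permutation p = 0.0873, adjusted p = 0.109) and is bounded by the zeros of *Alox5*. Neutrophils are rich in 5-lipoxygenase. All 5 neutrophil markers that could be tested were higher in hypHSC, among them *S100a8* (2226 ± 1425 against 20.4 ± 42.7 normalized counts, SD, n = 5 each), while *Ly6g* stayed at no more than 13.6. The summed markers measured 5420, 8404, 3350, 2039 and 2193 in hypHSC 1 to 5 and were thus highest in hypHSC 2 and hypHSC 1, as *Alox5* was. In qHSC they were highest in qHSC 4, at 400, where *Alox5* had no read. Other lists had the same 2 highest hypHSC libraries. The summed mast cell and basophil markers measured 557, 937, 252, 238 and 80.2 in hypHSC 1 to 5. The macrophage and sinusoidal endothelial sums were also highest in hypHSC 2 and next in hypHSC 1, and the sums of the remaining lists were not. The part of neutrophils or of any other cell type in the level of *Alox5* was not tested.

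*Ltc4s* encodes leukotriene C4 synthase, which joins leukotriene A4 to glutathione. It measured 257, 178, 200.4, 826 and 687 normalized counts in hypHSC 1 to 5 and 75.1, 8.52, 8.66, 273 and 1.5 in qHSC 1 to 5. The groups overlapped because qHSC 4 lay above hypHSC 1, 2 and 3. *Ltc4s* rose by 4.02 on the log2 scale (SE 1.12, adjusted p = 0.0121, limma; exact permutation p = 0.0317), but edgeR on the recovered reads gave 2.59 with an adjusted p of 0.0804. In addition, 25.8% of its exon bases are shared with *Gm26542* on the opposite strand, so part of its reads is uncertain.

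*Lta4h*, whose enzyme hydrolyses leukotriene A4 to leukotriene B4 and also works as an aminopeptidase, was the steadiest of the 10. It measured 3680, 3976, 3410, 3329 and 2744 normalized counts in hypHSC 1 to 5 and 4375, 4716, 4430, 4392 and 4942 in qHSC 1 to 5. Every hypHSC library was below every qHSC library, but the log2 fold change of -0.42 (SE 0.14, adjusted p = 0.0266, limma) was under the 2-fold threshold. By the adjusted p alone, 8 of the 9 enzymes passed, against 48.0% of all genes tested. The adjusted p was 0.0609 with edgeR, and the fold change reached -1.36 when libraries were scaled to *Hprt*, *Pgk1* and *Actb*. The log2 ratio of *Ltc4s* to *Lta4h* was negative in every library, from -4.47 to -2.0 in hypHSC and from -10.95 to -4.0 in qHSC. It was higher in hypHSC by 4.44 (exact permutation p = 0.0238, adjusted p = 0.0397).

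**Figure D2:**
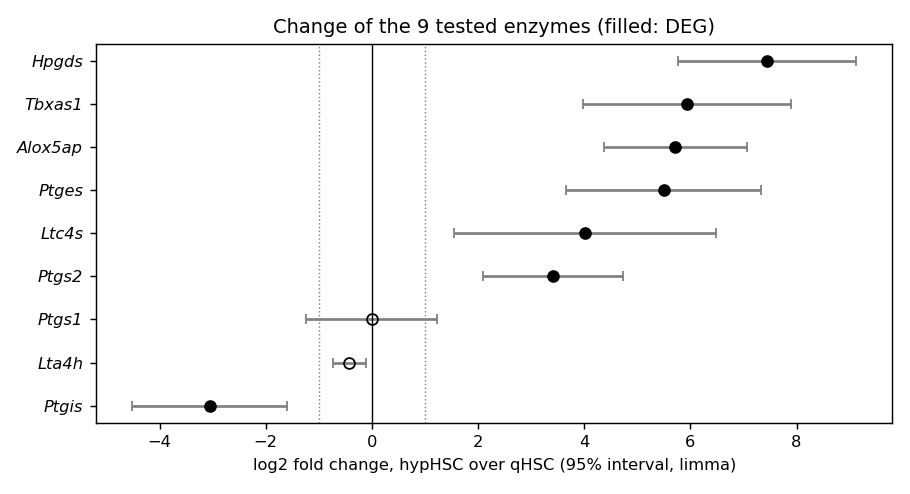
Log2 fold change of the 9 tested enzymes, hypHSC over qHSC, with 95% intervals from limma; filled points are DEGs and dotted lines mark the 2-fold threshold. The estimates run from -3.05 for *Ptgis* to 7.44 for *Hpgds*, and the interval of *Ptgs1* reaches past both thresholds.

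The scaling of the libraries shifts the fold changes, those of genes with few counts by less. The median log2 fold change of all genes tested was -0.20 as deposited, -0.09 with equal upper quartiles, -0.54 with equal totals and -1.12 with the 3 reference genes. *Hpgds*, *Tbxas1*, *Alox5ap*, *Ptges*, *Ltc4s* and *Ptgs2* stayed higher and *Ptgis* lower under each of these scalings, *Ltc4s* between 3.13 and 4.12 and *Ptgs2* between 2.49 and 3.52. The sign of *Ptgs1* was not fixed, at -0.94 with the reference genes and 0.10 with equal upper quartiles.

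Levels can be compared between genes only per exon length. In hypHSC, FPKM ran from 236 for *Alox5ap* over 58.7 for *Hpgds*, 9.45 for *Ltc4s*, 7.54 for *Lta4h*, 6.19 for *Ptgs1*, 4.70 for *Tbxas1*, 2.07 for *Ptgs2*, 0.896 for *Ptges* and 0.686 for *Ptgis* to 0.179 for *Alox5*. Every library lay higher for *Alox5ap* than any did for *Hpgds*, and higher for *Hpgds* than any did for *Ltc4s*, whereas from *Ltc4s* downwards each gene overlapped with the next. In qHSC the order was *Lta4h* (12.7 FPKM), *Alox5ap* (9.19), *Ptgs1* (8.54), *Ptgis* (4.82), *Ltc4s* (2.18), *Hpgds* (0.861), *Ptgs2* (0.331), *Tbxas1* (0.196), *Ptges* (0.0297) and *Alox5* (0.0218). There all neighbours overlapped. *Hpgds* moved from rank 9065 of all genes in qHSC to rank 618 in hypHSC.

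**Figure D3:**
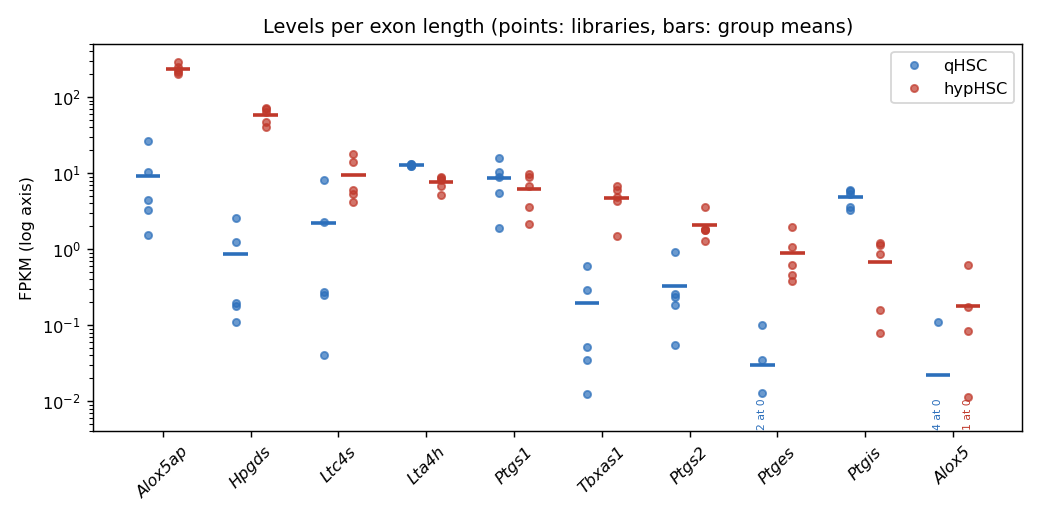
FPKM of the 10 enzymes on a log axis, with a point per library, bars at the group means, and libraries at 0 counted at the lower edge. *Alox5ap* (236 FPKM) and *Hpgds* (58.7 FPKM) lead in hypHSC, whereas *Lta4h* (12.7 FPKM) leads in qHSC.

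Within the qHSC libraries, 4 of the raised enzymes were highest in the same 2 libraries as the macrophage markers. Relative to the hypHSC mean, the summed macrophage markers stood at 2.68%, 0.425%, 0.724%, 6.00% and 0.606% in qHSC 1 to 5. *Alox5ap* stood at 3.31%, 0.504%, 1.34%, 8.54% and 1.15%, and *Tbxas1* at 4.86%, 0.211%, 0.553%, 10.1% and 0.960%. *Hpgds* was lower, at 1.59%, 0.259%, 0.219%, 3.38% and 0.155%, and *Ltc4s* at 17.5%, 1.98%, 2.02%, 63.5% and 0.349%. All 4 genes and the marker sum were highest in qHSC 4 and next highest in qHSC 1. So were *Ptgs1*, with no detectable difference between groups (2021.99 and 1311 normalized counts), and the summed neutrophil (400 and 126) and mast cell and basophil markers (36.8 and 27.2). Summed hepatocyte markers had the same 2 highest libraries, with qHSC 1 first. Apart from the Kupffer cell list, the other lists had different pairs of highest libraries. The summed Kupffer cell markers stood at 216% in qHSC 4 and 101% in qHSC 1, and at 19.8% to 32.7% in the other qHSC. These sums include *C6*, which had at least 3512 normalized counts in every qHSC library and was lower in hypHSC. The part of these cells in the qHSC levels was not tested. Without qHSC 1 and qHSC 4, the log2 fold changes were 6.72 for *Alox5ap*, 8.83 for *Hpgds*, 7.43 for *Tbxas1* and 5.84 for *Ltc4s*, and the same 7 enzymes were called. As these 2 libraries were the highest qHSC for the 4 genes, the larger differences without them follow from the choice and test nothing.

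**Figure D4:**
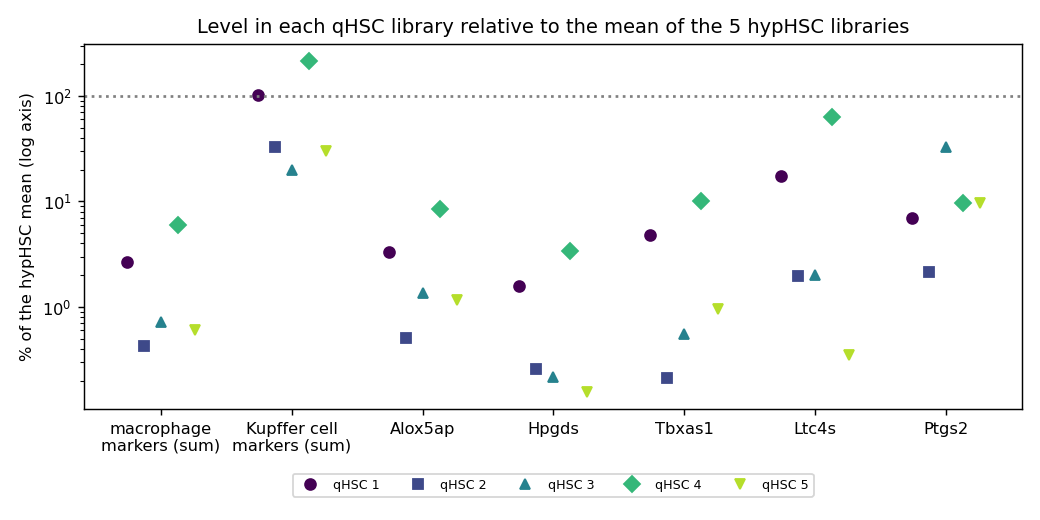
Level in each qHSC library as a percentage of the mean of the 5 hypHSC libraries, on a log axis, for 2 summed marker lists and 5 enzymes; the dotted line marks 100%. qHSC 4 and qHSC 1 are the highest for the marker sums and for *Alox5ap*, *Hpgds*, *Tbxas1* and *Ltc4s*, while *Ptgs2* peaks in qHSC 3.

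The genes most like each enzyme were sought over the 10 libraries by Pearson's r of log2 values after the mean of each group was removed, among 10791 other genes whose mean reached 100 normalized counts. The libraries share depth and makeup, so r is a description. Each gene named is also among the best of 10791 over 10 libraries, so a high r can follow from the choice alone. Much of the spread can lie in qHSC: log2 values of *Alox5ap* ran from 7.62 to 11.7 there and from 14.8 to 15.7 in hypHSC. For *Alox5ap* the first was *Fcer1g* (r = 0.99), the common Fc receptor gamma chain of myeloid cells, for *Hpgds* it was *Mrc1* (r = 0.98), the macrophage mannose receptor, and for *Tbxas1* it was *Pld4* (r = 0.99). *Hpgds* was itself the second most like *Ltc4s* (r = 0.96). For *Ptgs2* the first 2 were *Pgs1* (r = 0.92) and *Tnfaip3* (r = 0.90), for *Ptgs1* the first was *Asah1* (r = 0.96), for *Ptgis* *Rusc1* (r = 0.99), for *Lta4h* *Ppil4* (r = 0.97), and for *Ptges* *Tcta* (r = 0.90).

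The other genes of the pathway were taken from 4 lists, and the calls in each are to be read beside the 17.8% higher and 21.7% lower among all genes tested. Of the phospholipases that release arachidonic acid, 4 of 10 could be tested. *Pla2g4a*, the cytosolic phospholipase A2 that feeds this pathway, rose by 1.44 (SE 0.38, adjusted p = 0.00941, limma), from 762 ± 415 to 1851 ± 459 normalized counts (SD, n = 5 each). *Pla2g4b* fell by 1.46 (adjusted p = 0.0329), at a low level of 36.8 normalized counts in hypHSC, and lost its call with edgeR and when hypHSC 1 or any of qHSC 1, 2, 3 and 5 was left out. The median of this list was -0.31, against -0.20 for all genes tested.

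Of the other synthases and lipoxygenases, 9 of 15 were tested, 3 (33.3%) rose and 0 fell, with a median of 0.73, against 17.8% and 21.7% of all genes. *Mgst2*, a microsomal glutathione transferase that can also make leukotriene C4, rose by 7.14 (SE 0.89), from at most 15.4 normalized counts in qHSC to 270.2 to 628 in hypHSC. *Mgst1* of the same family rose by 1.93 and *Ptges2*, a second prostaglandin E synthase, by 1.27 (adjusted p = 0.0386), though only to 55.9 normalized counts. The call of *Ptges2* was lost with edgeR (adjusted p = 0.0529), with equal totals (0.93), with hypHSC at 12 weeks only, and when any of hypHSC 1, 2 and 5 or qHSC 1, 2 and 5 was left out. None of the 12- and 15-lipoxygenase genes in the list could be tested, the highest of them being *Alox12e* with 70.1 normalized counts in 1 hypHSC library.

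Of the genes of breakdown and transport, 13 of 14 were tested, 6 (46.2%) rose and 2 (15.4%) fell, with a median of 1.27, against 17.8% and 21.7% of all genes. Of the 6, *Hpgd* and *Dpep1* lost their calls with equal totals and in several of the fits that left out 1 library. *Dpep2*, a dipeptidase that converts leukotriene D4 to E4, rose by 8.19 (SE 0.38), from 10.5 to 53.4 normalized counts in qHSC to 8709 to 10943 in hypHSC. *Cyp4f18*, which oxidises leukotriene B4 in the mouse, rose by 5.61, and *Ptgr1*, which acts on leukotriene B4 and prostaglandin metabolites, by 4.56. *Ggt5*, the gamma-glutamyl transferase that converts leukotriene C4 to D4, fell by 5.18 (SE 0.29), from 3060 ± 853 to 85.1 ± 30.8 normalized counts (SD, n = 5 each), and *Zadh2*, which reduces 15-keto prostaglandins, fell by 1.47. *Ggt5*, whose enzyme can act on the product of *Ltc4s*, thus had lower levels in hypHSC, and *Dpep2*, for the step after that, had higher levels.

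Of the receptors, 9 of 15 were tested, 2 (22.2%) rose and 2 (22.2%) fell, with a median of 0.16, shares close to the 17.8% and 21.7% of all genes. *Ptger4*, a receptor of prostaglandin E2, rose by 4.53 (SE 0.50), and *Ptgir*, the prostacyclin receptor, by 1.43, with overlapping groups. The call of *Ptgir* was lost with equal totals (1.08, adjusted p = 0.0728, limma), with hypHSC at 12 weeks only (1.30) and without qHSC 1 and 4 (1.20). *Ptger2*, the other prostaglandin E2 receptor that raises cyclic AMP, fell by 3.05 (SE 0.24), from 8146 ± 1486 to 1009 ± 307 normalized counts (SD, n = 5 each). *Tbxa2r*, the thromboxane receptor, fell by 4.20 (SE 0.72), from 19.7 to 78.7 normalized counts in qHSC to at most 4.14 in hypHSC. It thus fell where the thromboxane synthase rose. The prostaglandin D2 receptor *Ptgdr* had 0 reads in every library, and *Ptgdr2* did not pass the test (0.90, SE 0.65).

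**Figure D5:**
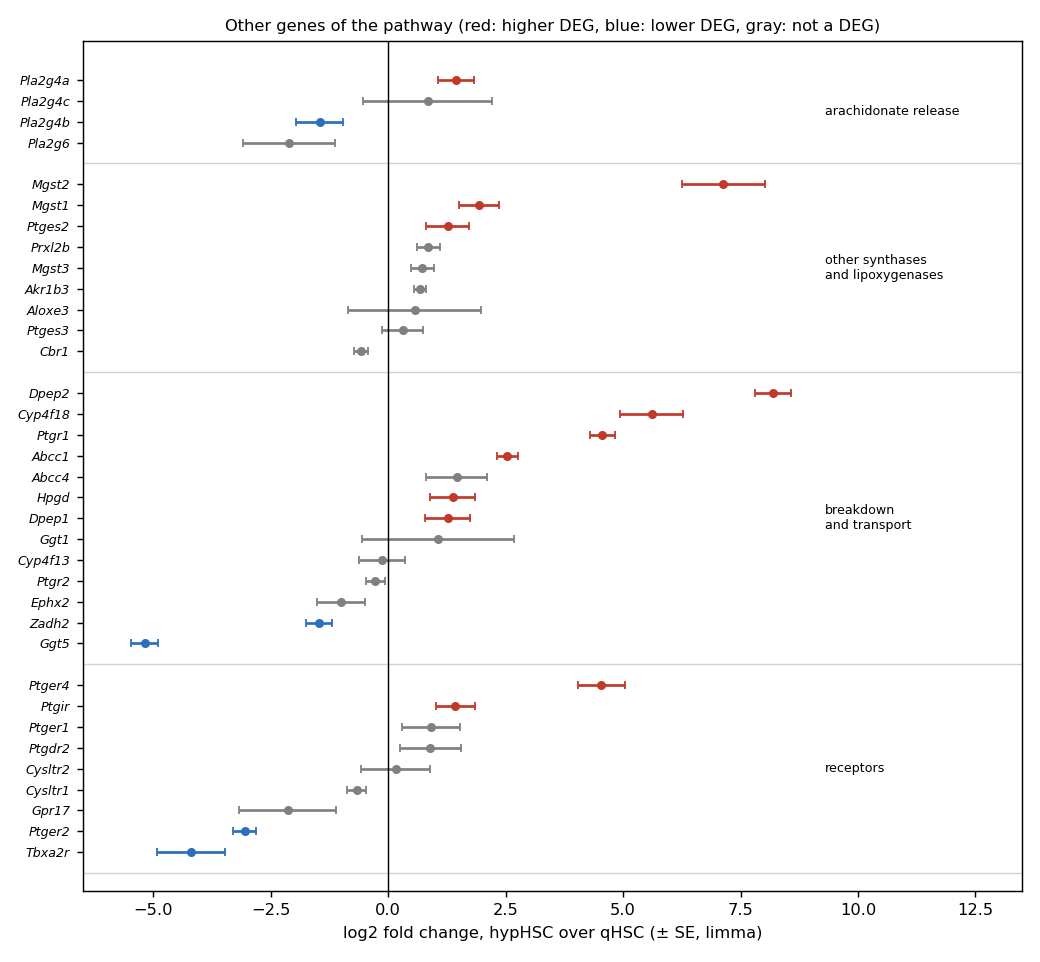
Log2 fold change (± SE, limma) of the tested genes of 4 pathway lists, hypHSC over qHSC; red points are DEGs higher, blue points DEGs lower and gray points not DEGs. *Dpep2* (8.19) and *Mgst2* (7.14) are the highest, and *Ggt5* (-5.18) and *Tbxa2r* (-4.20) the lowest.

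Within the groups, none of the 9 tested enzymes was a DEG between hypHSC at 13 and 12 weeks of diet, where 0.00684% of all genes tested were DEGs (limma with 3 groups). At an unadjusted p under 0.05, 12.8% of all genes differed, and of the enzymes *Ptgis* did, with 147 normalized counts at 13 weeks and 63.9 at 12 weeks, a difference of 1.92 (SE 0.80, adjusted p = 0.384). Between qHSC of 36 and 34 weeks of age 0% of genes were DEGs and 1.31% passed an unadjusted p under 0.05, among them *Ptgs2*, with 27.6 normalized counts at 36 weeks and 93.8 at 34 weeks, a difference of -1.72 (SE 0.74, adjusted p = 1.0). With 2 or 3 libraries on a side, these contrasts leave wide intervals. The hypHSC libraries at 13 weeks also held more mitochondrial reads, 12.8% in hypHSC 1 and 7.27% in hypHSC 2, against 2.21% to 3.42% at 12 weeks. The part of this in the difference between diet weeks was not tested.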

How the data were processed

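RNA from 5 hypHSC and 5 qHSC preparations was reverse-transcribed from the poly(A) tail, amplified and sequenced without keeping the strand. The authors mapped reads to the mouse genome (mm39, the same as GRCm39) with STAR 2.7.5a and counted them per gene with featureCounts (Subread 1.5.0). The deposited signal is a count divided by the DESeq2 size factor of its library, called a normalized count here. Multiplied by 1 factor per library, 100% of the values became whole reads (tolerance 0.01), which served for depth, FPKM, DESeq2 (1.42.0) and edgeR (4.0.16).

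The table has 62322 entries. Entries without a symbol were left out, and a gene was tested where 5 or more libraries reached 10 normalized counts. limma (3.58.1, lmFit and eBayes with trend, in R 4.3.3) was run on log2(normalized count + 1), where the pseudocount shrinks changes of genes near 0. Fold changes on this scale can still be larger than those of DESeq2 on recovered reads, as for *Ptgis* (-3.05 against -2.50). The p-values were adjusted by Benjamini-Hochberg across the 14630 tested genes. The fit was also run on simulated data with known changes. Fewer genes changed there, by smaller folds and at 1 common spread, so that run does not tell how the fit does on these data. Single genes and ratios were also compared by exact two-sided permutation over 252 arrangements. FPKM used GENCODE vM39 exon lengths, found for 91.9% of genes with a symbol.

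The members, pathway lists and marker lists were chosen with earlier results of these data known. Besides the 10 enzymes, the genes named are the 3 largest rises and falls among the DEGs of each pathway list, marker genes, and the genes most like each enzyme. *Ptgds*, *Ptgdr*, *Ptgdr2*, *Alox12e*, *Ly6g*, *Hpgd*, *Dpep1*, *Ggt1*, *Tpsb2* and *Cma1* were added after their values were seen. Alternatives varied the pseudocount, low-value filter, library scaling, test (DESeq2 or edgeR on recovered reads), replicate block, entries tested and libraries included, singly. The fit without qHSC 1 and qHSC 4, the qHSC libraries with the highest macrophage markers, was added after seeing the data.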

Additional observations from a re-analysis of the deposited data

Results flagged for a closer look

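Among the 20 groups of 5 libraries (10 enzymes, each in hypHSC and qHSC), 3 had a library set apart from the others by more than Dixon's 95% critical value. Chance alone flags about 1 group in 20. *Ptgs2* measured 759.9 normalized counts in hypHSC 2, against 316 to 407 in the other hypHSC libraries. *Tbxas1* measured 903 normalized counts in hypHSC 5, against 2219 to 3111 in the other hypHSC libraries. *Alox5* measured 14.5 normalized counts in qHSC 1 and 0 in the other qHSC libraries. With those tied at 0, any reads in qHSC 1 would have been flagged, so the rate of 1 in 20 does not apply there.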

How the results depend on the processing

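Under each alternative run, 6 of the enzymes were called higher, except with edgeR, where *Ltc4s* lost its call (2.59, adjusted p = 0.0804). Scaling to the 3 reference genes gave 1472 DEGs higher and 6989 lower, called 2 enzymes lower (*Lta4h* at -1.36 beside *Ptgis*), and moved the lists to 0 higher and 2 lower (arachidonate release), 1 higher and 1 lower (other synthases), 5 lower (breakdown and transport) and 1 higher and 4 lower (receptors). Entries without a symbol brought the DEGs to 9291, 3911 higher and 5380 lower. In the arachidonate release list 2 genes were higher with no filter, 0 lower with edgeR, under the block or without qHSC 1 and 4, and 2 lower with hypHSC at 12 weeks only. Of the receptors, 1 was higher (*Ptgir* lost its call) with equal totals, at 12 weeks only or without qHSC 1 and 4, and 1 lower at a minimum of 50 normalized counts. The difference of *Ptgs1*, at no time past the threshold, changed sign to 0.10 (upper quartile), 0.031 (TMM factors) and 0.59 (without qHSC 1 and 4). With a pseudocount of 5, the ratios *Alox5ap* to *Alox5* (4.18) and *Hpgds* to *Ptges* (3.22) passed the test. With fewer libraries and so fewer arrangements, the ratios no longer passed it: at 12 weeks only, *Ptgs2* to *Ptgs1* (3.50), *Ltc4s* to *Lta4h* (5.02) and *Tbxas1* to *Ptgis* (9.60), and without qHSC 1 and 4 the same at 2.78, 6.30 and 10.50. Leaving out each library in turn kept 7 enzymes called, with *Ptgs1* between -0.50 and 0.30, arachidonate release genes lower between 0 and 2, and these ratios between 2.85 and 4.39, 3.63 and 5.37, and 8.31 and 9.78; the ratios still passed the test in 1, 1 and 2 of these 10 fits, with adjusted p up to 0.0794. The replicate numbers of the labels did not pair the libraries, since same-numbered libraries deviated together with correlations of 0.008 to 0.129; with the replicate block there were 5786 DEGs and the same 7 enzymes were called. Depth limits *Alox5* and *Ptges* in qHSC, which lie at or near the floor of 3 reads.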
